A study of Saccharomyces cerevisiae with 24 samples.

Results

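The cell wall integrity kinase pathway of budding yeast was followed through the transcripts of 9 genes among the 7126 features of an RNA-seq table. The genes were chosen by name and locus: the sensors WSC1 (YOR008C) and MID2 (YLR332W), the kinases PKC1 (YBL105C), BCK1 (YJL095W), MKK1 (YOR231W), MKK2 (YPL140C), SLT2 (YHR030C) and KDX1, also called MLP1 (YKL161C), and the transcription factor RLM1 (YPL089C). All 9 reached the mean of 1 FPKM (a read level scaled to transcript length and sequencing depth) required for testing, as did 6359 features in all. The 24 libraries hold 4 strains sampled before and 10 and 20 min after adding 0.4 M NaCl in synthetic complete medium, with 2 libraries for each of the 12 groups. Every strain, the wild type (WT) included, is a W303-1a derivative with sho1::HIS3, which removes an osmosensor, and with a reporter driven by the STL1 promoter at leu2. The strains Mut1, Mut2 and Mut3 carry altered Ypd1 and Sln1, the proteins of the osmosensing phosphorelay: Mut1 has Ypd1 M20D, Mut2 has Ypd1 M20D and M92K, and both have Sln1 E1101K, E1110K and S1179D. Mut3 has Ypd1 I13D, and its Sln1 changes are those of Mut1 plus L1109K. The labels do not tell if a group's pair of libraries was grown separately, so each p below covers the spread between libraries alone, which may be technical.

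The pathway guards the wall that keeps a yeast cell from bursting. Wsc1 and Mid2 span the plasma membrane, sense wall stretch and recruit exchange factors for the GTPase Rho1, which turns on protein kinase C (Pkc1). Pkc1 starts a MAP kinase cascade of Bck1, the redundant pair Mkk1 and Mkk2, and the MAP kinase Slt2. Slt2 phosphorylates the MADS-box factor Rlm1, which drives genes of wall synthesis and repair. Kdx1 is a paralog of Slt2 that lacks normal kinase activity, and KDX1 is itself a known target of Rlm1. The pathway is known mainly for its answer to heat and wall damage, and the Hog1 pathway for the answer to high salt.

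Without salt, SLT2, KDX1 and RLM1 were higher in Mut1 and Mut2 than in WT, by 1.55- to 3.06-fold, where 18.1% and 20.9% of all tested features were called. No member passed the threshold in Mut3 (7.91% of features). In salt, SLT2 rose 2.58-fold in WT and 2.55-fold in Mut3 within 10 min, and was not called at that time in Mut1 or Mut2, where it was already high. KDX1 fell in Mut1 and Mut2 by 2.63- and 2.20-fold over 20 min. PKC1 rose in all 4 strains by 20 min, by 1.53- to 1.73-fold. Of all tested features, 58.1% to 61.6% were called at 10 min against 0 min, depending on the strain, and 63.5% to 70.7% at 20 min. The calls of SLT2 and RLM1 rest on comparing libraries of the same number, and none of them held without that block, while those of KDX1 before salt and of PKC1 at 20 min did.

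FPKM summed to between 1850836 and 2995688 in a library, and 638 to 735 features stood at 0. The depth of the libraries is unknown, since the values are FPKM alone. SHO1 stood at 0 in all 24 libraries, as its deletion requires. All 7 listed genes of mating type a were detected, with a summed level of 2580 to 32900 FPKM. Among them MFA1 and MFA2 had the highest medians, 1310 and 4840 FPKM. The 4 listed alpha genes summed to 21.9 to 49.5 FPKM. Of these, STE3, the a-factor receptor gene, reached at most 0.596 FPKM and MFALPHA1 at most 2.05 FPKM. MFALPHA2 and SAG1 were detected in all 24 libraries, at no less than 11.3 and 10.1 FPKM. These levels exceed the lowest ones of the a genes ASG7 (5.1 FPKM) and BAR1 (9.56 FPKM). Structural and other RNA genes summed to 75000 FPKM in library 0 of Mut2 at 20 min and to 4170 to 14800 FPKM in the other 23 libraries, so the counts of called members for Mut2 at 20 min are also given without that library. FPKM are relative levels in whole cultures, so a change of a gene cannot be told apart from a change in the other transcripts.

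The columns of each group end in 0 or 1, here called library 0 and library 1, and most members differed by this number. SLT2 was higher in library 1 of every group, by 1.96- to 3.71-fold, and by 2.71-fold in the fit. RLM1 (1.96-fold), WSC1 (1.94-fold), MID2 (1.69-fold), MKK2 (1.60-fold) and MKK1 (1.42-fold) were also higher in library 1 in all 12 groups. PKC1 differed by only 1.08-fold (adjusted p = 8.87e-04) and BCK1 by 1.07-fold (adjusted p = 0.0733), and both turned to the opposite sign when the columns were rescaled by median ratios (log2 -0.08 for each). KDX1 stood apart from the rest in the main fit, with library 1 slightly lower (log2 -0.12, 1.09-fold, adjusted p = 0.00753). The sizes depend on the scaling of the columns. On rescaling, limma gave log2 -0.33 for KDX1 (adjusted p = 4.54e-07) and called PKC1 as lower in library 1 (0.00287). SLT2 went from log2 1.44 to 1.23. In all, 8 of 9 members differed by library number, where 73.2% of the 6359 tested features did. The median ratio of SLT2 exceeded that of 97.8% of the 5970 features averaging 5 FPKM or more. The difference of SLT2 by library number was known when the members were chosen, so its ratio and rank are descriptions only. Which of the labels' replicates each number stands for is not stated, and what sets the libraries apart was not tested.

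**Figure D1:**
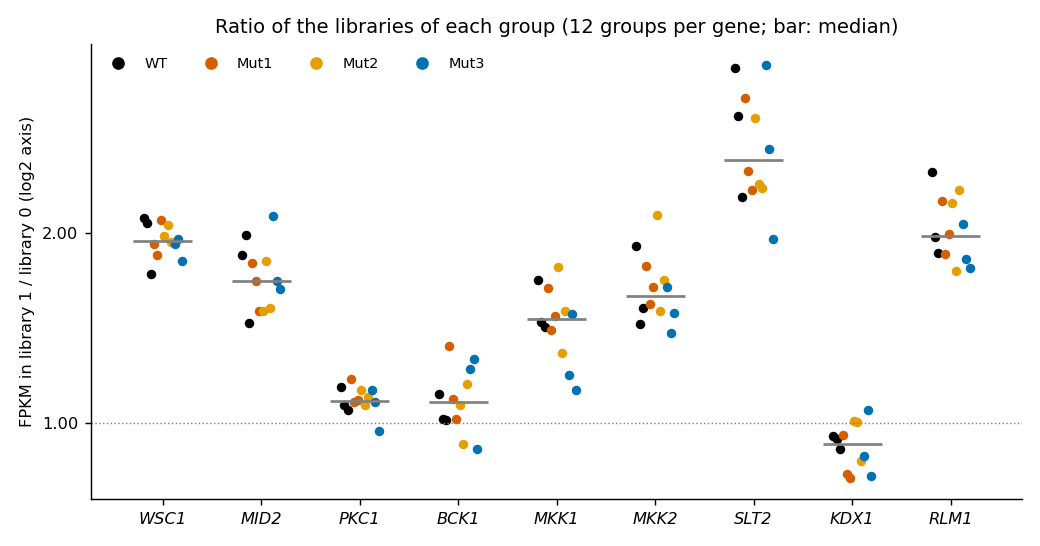
Ratio of FPKM in library 1 to library 0 (log2 axis) for the 9 genes, 1 point for each of the 12 groups, coloured by strain, with the median as a bar. SLT2 lies between 1.96 and 3.71 and KDX1 between 0.817 and 1.05, near the dotted line at equal levels.

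Libraries of the same number deviated together from their group means, with a correlation across features of 0.23 to 0.601 in all 66 pairs of groups. The tests hold the library number as a block, which compares libraries of the same number. This block was set when the members were chosen, with the difference of SLT2 by library number known, and not because of these correlations. Differences are on the log2(FPKM + 1) scale with the standard error (SE) of the fit, folds are taken from them, and genes whose adjusted p over all 6359 features was under 0.05 were called (limma with Benjamini-Hochberg adjustment). Where the fit without the block changes a call, its p is printed beside it. A fit on the compared groups alone, with the block but only 1 residual degree of freedom (3 for responses), lost 54 of the 106 calls of members between groups, from 2 of 13 for SLT2 to 15 of 17 for WSC1. All are named after the results, and those of SLT2, KDX1, PKC1 and RLM1 between strains or times also beside them.

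The DNA before the members was searched for the kind of site Rlm1 binds. An Rlm1-type (MEF2-type) site, searched on both strands in the 500 bases before the start codon, was found for 3 of the 9 members and for 109 of 6000 protein-coding genes (1.82%). The sites are shown because Rlm1 is the end point of the cascade. They lie before BCK1, MKK1 and RLM1 itself. In the list of 17 cell wall genes described below, 7 have such a site: HSP150, PIR3, SED1, PST1, BGL2, CWP1 and CCW14. Of these, PIR3, SED1 and CWP1 are printed. Other genes of that list, such as CIS3 and NCW2, have none, and a link between sites and levels was not tested. Each run of 30 bases is from the RefSeq sequence of build R64, 5′ to 3′ on the gene's strand, with the site in capitals.
BCK1, chrX:247207-247236 (+ strand): gtacgaaacaCTAAATATAGtattaaaata
MKK1, chrXV:772158-772187 (+ strand): atgcttttaaCTATTATTAGtttttctcac
RLM1, chrXVI:381439-381468 (- strand): gagatgaaagCTAATAATAGaaacagctcg
PIR3, chrXI:144111-144140 (+ strand): gattagcaaaCTAATTATAGatcaaaggcc
SED1, chrIV:600303-600332 (+ strand): gcatatatcgCTAAAATTAGccatcagaac
CWP1, chrXI:260736-260765 (+ strand): tacgtcataaCTAAAAATAGcgttagccac

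The site of BCK1 starts 38 bases before its start codon, that of RLM1 308 and that of MKK1 433. The windows of SLT2 and KDX1 hold no run of these letters, which says nothing of whether Rlm1 acts there. The stress element AGGGG, read on either strand, was found before WSC1, PKC1 and BCK1, and before 34.1% of the 6000 genes. None of the 9 genes has a near-identical copy in the genome (95% identity over 50% of the length). MID2 overlaps JIP3 (YLR331C), annotated on the same stretch and listed at 0 to 3.98 FPKM, and its values are uncertain to that extent, since counting by strand is not stated.

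Per length, SLT2 had the highest mean of the members over the 24 libraries, 163 FPKM, but the order depended on the library number. Over the 12 libraries 0, KDX1 averaged 94.9 FPKM and SLT2 89.0 FPKM, and over the 12 libraries 1, 88.4 and 237 FPKM. BCK1 had the lowest mean, 6.81 FPKM, which exceeds that of only 8.29% of tested features. The sensor WSC1 averaged 115 FPKM and MID2 77.5 FPKM, KDX1 91.7 FPKM, and PKC1 30.3 FPKM. MKK1 averaged 28.2 FPKM, MKK2 26.3 FPKM and RLM1 23.1 FPKM. BCK1 (chromosome X, 247255 to 251691) kept within 4.95 to 8.46 FPKM in all libraries and MKK1 (chromosome XV, 772601 to 774127) within 16.9 to 40.1 FPKM. MKK2 (chromosome XVI, 287514 to 289034) ranged from 15.0 to 46.0 FPKM and WSC1 (chromosome XV, 341278 to 342414) from 57.1 to 201 FPKM. Group means on the log2 scale spanned 3.47-fold for KDX1, from Mut3 at 20 min to untreated Mut2, and 3.23-fold for SLT2, from untreated WT to Mut3 at 10 min, beside 1.39- to 2.02-fold for the other 7.

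**Figure D2:**
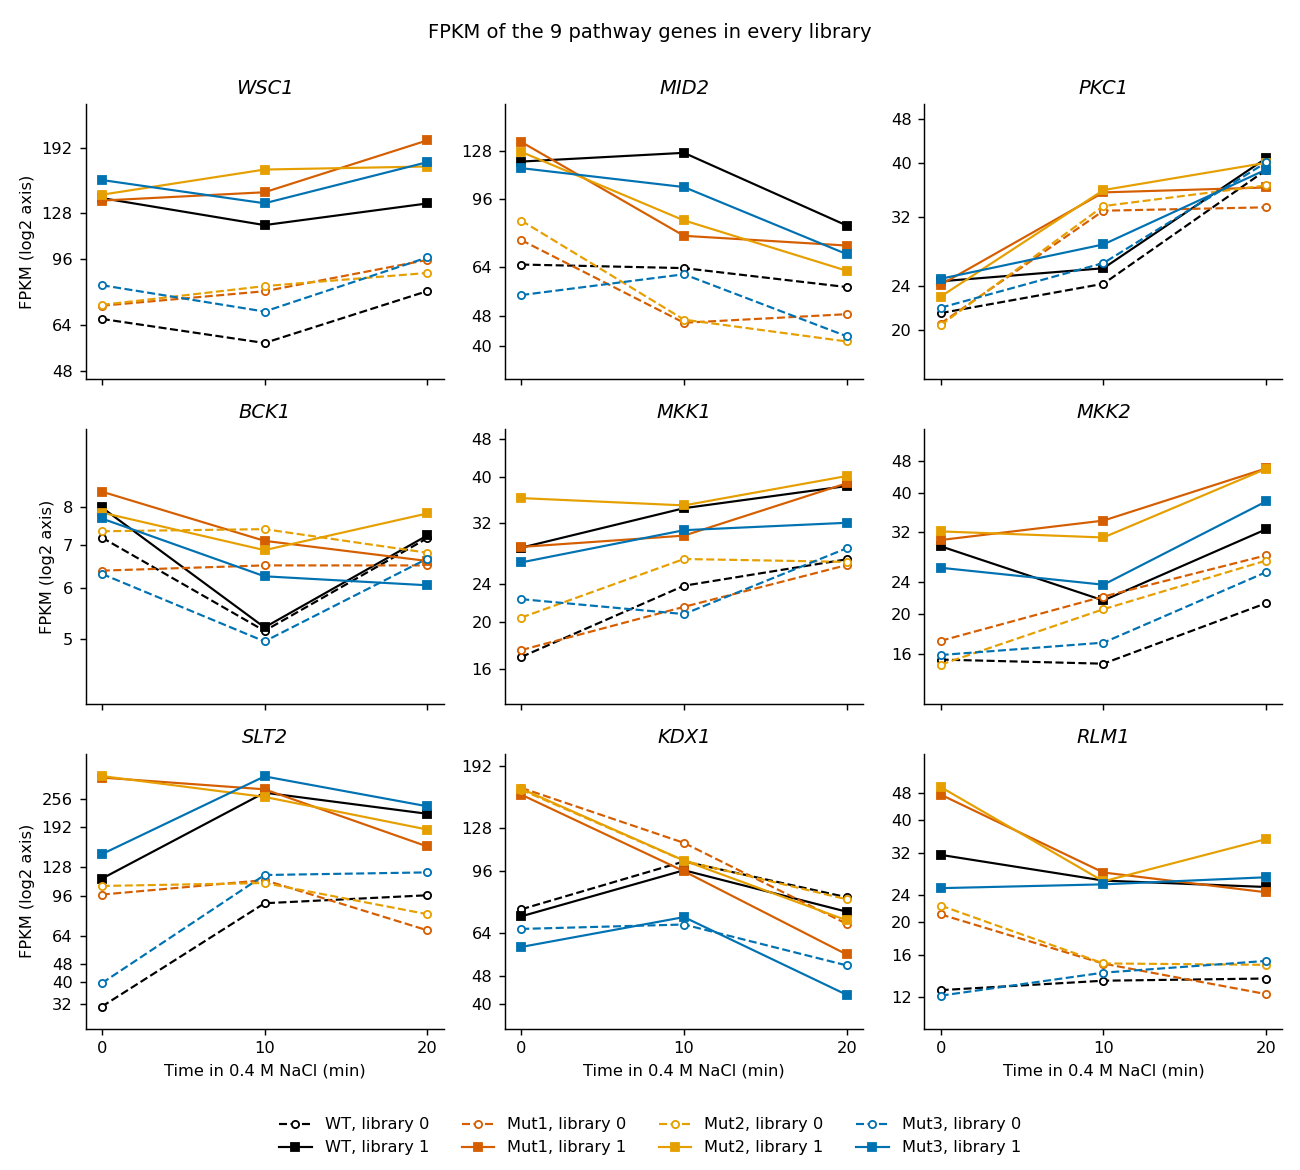
FPKM (log2 axis) of the 9 genes in all 24 libraries against time in 0.4 M NaCl, coloured by strain, with open circles and dashed lines for library 0 and filled squares and solid lines for library 1. For SLT2 the lines of library 1 lie above those of library 0, and within each number WT and Mut3 rise from a low start while Mut1 and Mut2 start high.

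Before salt, the MAP kinase gene SLT2 (chromosome VIII, 168890 to 170344, build R64) was higher in Mut1 and Mut2 than in WT. It stood at 31.1 and 114 FPKM in libraries 0 and 1 of WT, at 97.1 and 319 FPKM in Mut1, at 106 and 323 FPKM in Mut2, and at 39.5 and 146 FPKM in Mut3. Within each library number Mut1 and Mut2 were the high strains, although the ranges of the groups overlap when the numbers are ignored. The difference from WT was 1.54 ± 0.19 on the log2 scale (2.91-fold) in Mut1 (adjusted p = 3.95e-05) and 1.62 ± 0.19 (3.06-fold) in Mut2 (adjusted p = 2.59e-05). Without the block neither was called (adjusted p = 0.654 and 0.565). In Mut3 the difference was 0.34 ± 0.19 (adjusted p = 0.328).

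KDX1 (chromosome XI, 149386 to 150687) was likewise high in Mut1 and Mut2, with a small spread between libraries. It stood at 74.6 and 71.2 FPKM in WT, 166 and 159 FPKM in Mut1, 164 and 165 FPKM in Mut2, and 65.5 and 58.2 FPKM in Mut3. The libraries of Mut1 and Mut2 were all above those of WT and Mut3, with no overlap. With 2 libraries a group, lack of overlap is a description here and below, and its share over all features was not counted. The difference from WT was 1.15 ± 0.09 (2.22-fold, adjusted p = 5.23e-07) in Mut1 and 1.17 ± 0.09 (2.25-fold, adjusted p = 4.84e-07) in Mut2, and it was also called without the block (adjusted p = 7.64e-05 and 7.34e-05). In Mut3 it was -0.24 ± 0.09 (adjusted p = 0.136).

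RLM1 (chromosome XVI, 379120 to 381150), the transcription factor, moved the same way by less. It stood at 12.6 and 31.5 FPKM in WT, 21.1 and 47.4 FPKM in Mut1, 22.4 and 49.9 FPKM in Mut2, and 12.1 and 25.1 FPKM in Mut3. Mut1 and Mut2 were the higher strains within each library number. The difference from WT was 0.64 ± 0.12 (1.55-fold, adjusted p = 0.00143) in Mut1 and 0.71 ± 0.12 (1.64-fold, adjusted p = 5.98e-04) in Mut2, and neither was called without the block (adjusted p = 0.943 and 0.827) or on the compared groups alone (0.0564 and 0.0806).

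The other 6 members, from the sensors to the MAP kinase kinases, differed from WT by 1.00- to 1.23-fold before salt and none was called. Of the 9 members, 3 were thus called in Mut1, where 18.1% of tested features were, 3 in Mut2, where 20.9% were, and 0 in Mut3, where 7.91% were. All members called were higher. In Mut3, limma gave 2 members, WSC1 and KDX1, at an unadjusted p under 0.05. The lowest adjusted p there was that of WSC1 (0.23 ± 0.07, 0.0784), which passed when the columns were rescaled (0.0487). The comparisons of the 3 mutants share the WT libraries. None of the calls in Mut1 and Mut2 was lost when any single library was left out of the fit on all groups, while the compared groups alone left 2 in each, SLT2 and KDX1.

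**Figure D3:**
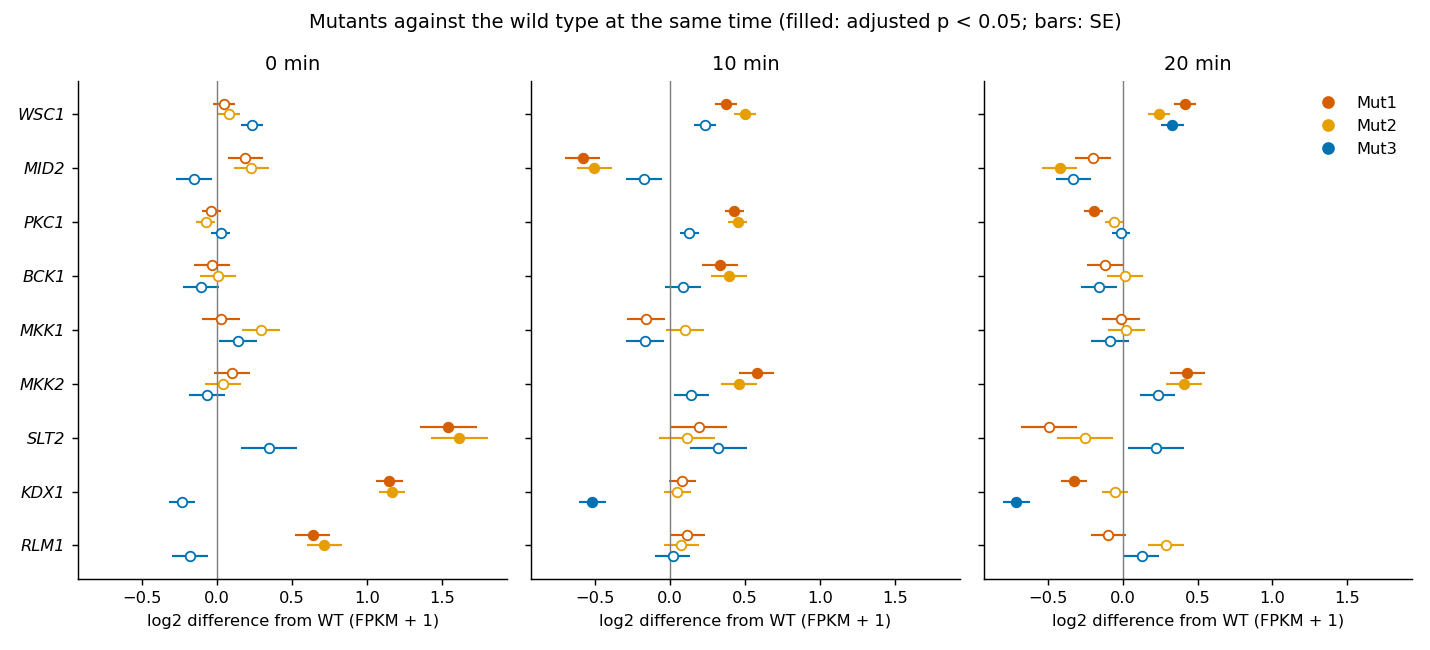
Log2 difference of Mut1, Mut2 and Mut3 from WT for the 9 genes at 0, 10 and 20 min, with bars of 1 SE and filled points for an adjusted p under 0.05. At 0 min only SLT2, KDX1 and RLM1 of Mut1 and Mut2 are filled, between 0.64 and 1.62.

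Most wall genes listed as answering to Slt2 and Rlm1 were called higher in untreated Mut1 and Mut2. Of a list of 17, 15 were called higher and 0 lower in Mut1, with a median log2 difference of 1.09, and 14 higher and 0 lower in Mut2, with a median of 1.05. Over all tested features 11.6% and 12.2% were called higher, with a median of -0.00 and -0.02. In Mut3, 3 were higher and 2 lower, with a median of 0.00, where 5.30% of tested features were called higher. Without the block 6 of the 17 were called in Mut1, 8 in Mut2 and 1 in Mut3. The list was chosen with earlier results of these data known. Whether Slt2 or Rlm1 set these levels was not tested.

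PIR3, which encodes a wall glycoprotein and lies on chromosome XI (144401 to 145378) as KDX1 does, went from a mean of 48.5 FPKM in WT to 1214 FPKM in Mut1 (25.0-fold, adjusted p = 1.07e-09) and 1214 FPKM in Mut2 (25.0-fold, adjusted p = 7.08e-10). In Mut3 it was at 115 FPKM (2.39-fold, adjusted p = 3.84e-04). CIS3, another glycoprotein of the PIR family, was 3.10-fold higher in Mut1 and 3.87-fold in Mut2, and in Mut3 2.10-fold (adjusted p without the block 0.0671). SED1, which encodes an abundant GPI-anchored wall protein, was 3.11-fold higher in Mut1 and 3.27-fold in Mut2. CWP1, a wall mannoprotein gene, was 2.81-fold higher in Mut1 and 1.61-fold lower in Mut3, and neither was called without the block (adjusted p = 0.289 and 1.00). NCW2, another wall protein gene, was 3.15-fold higher in Mut2. CWP2, a further mannoprotein gene, was 1.60-fold higher in Mut3 (adjusted p without the block 1.00). The genes not called in Mut1 were CHS3, the main chitin synthase gene (adjusted p = 0.367), and TIR1 (0.561), and in Mut2 CHS3 (0.734), TIR1 (0.0520) and the glucan synthase gene FKS1 (0.0532).

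**Figure D4:**
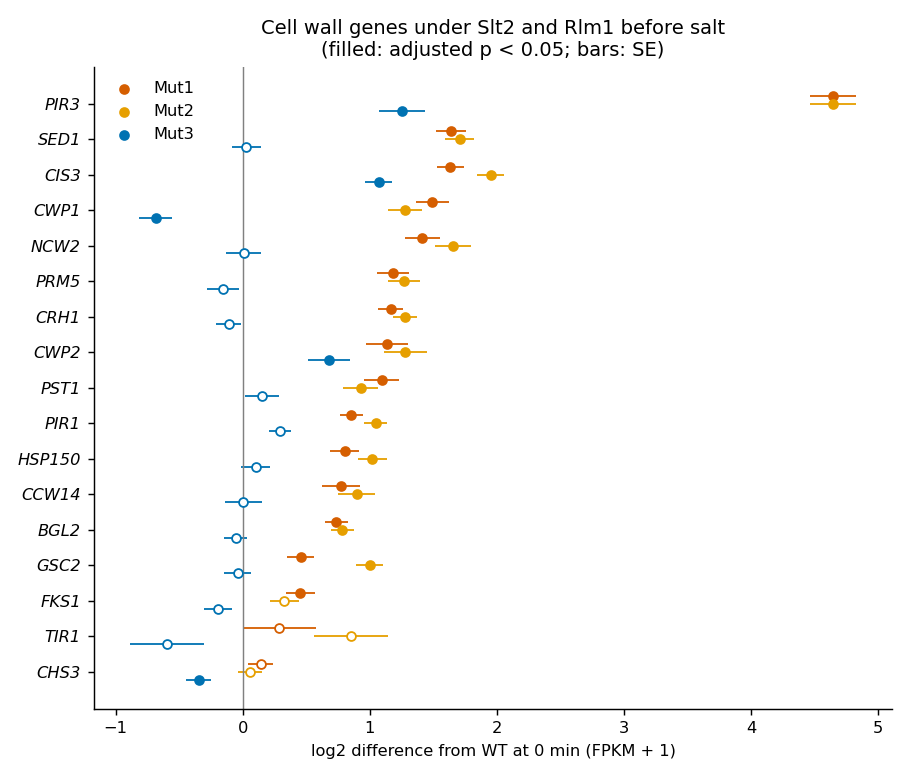
Log2 difference from WT at 0 min of the 17 cell wall genes, ordered by Mut1, with bars of 1 SE and filled points for an adjusted p under 0.05. PIR3 leads at 4.64 in Mut1 and 4.65 in Mut2, and most points of Mut3 lie near 0.

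The pathway's other regulators were called in part. Of 22 other pathway genes, 8 were higher and 3 lower in Mut1, and 8 higher and 3 lower in Mut2, with median log2 differences of 0.19 and 0.17, and in Mut3 1 was higher and 1 lower, with a median of 0.02. Over all tested features 11.6% were higher and 6.49% lower in Mut1, 12.2% and 8.68% in Mut2, and 5.30% and 2.61% in Mut3. Without the block 4, 4 and 0 of the 22 were called. PTP2, which encodes a phosphatase of Hog1 and Slt2, was 2.13-fold higher in Mut1 and 2.40-fold in Mut2, and BAG7, a Rho1 GTPase-activating protein gene, 1.99- and 2.21-fold (adjusted p without the block 0.151 and 0.0876). PKH2, a kinase gene acting on Pkc1, was 1.64- and 1.87-fold higher. PTP3, the related phosphatase gene, was 1.63-fold higher in Mut1 and 1.35-fold in Mut3 (without the block 0.0571). WSC4, a sensor of the Wsc family, was 1.60-fold lower in Mut2 (without the block 0.692), and BEM2, another GTPase-activating protein gene, 1.30-fold lower in Mut3 (without the block 0.816). A gene is named only for mutants where it was among the 4 largest called changes. Mean untreated levels of WSC4 were 8.91 FPKM in WT, 5.14 in Mut1 and 5.34 in Mut2. Those of BEM2 were 26.1, 19.9 and 20.2 FPKM in the same order, so neither fall was particular to the mutant named.

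In WT, salt raised SLT2, KDX1 and MKK1 and lowered BCK1 and WSC1 at 10 min. In all, 5 of the 9 members were called, where 61.6% of tested features were, so this share is near the background. SLT2 rose within each library number, from 31.1 to 88.9 FPKM in library 0 and from 114 to 273 FPKM in library 1. The change was 1.37 ± 0.19 (2.58-fold, adjusted p = 2.05e-05), and it was not called without the block (adjusted p = 0.310). KDX1 rose from 74.6 and 71.2 FPKM to 102 and 96.6 FPKM, with no overlap between the groups (1.36-fold, adjusted p = 5.93e-04). BCK1, the MAP kinase kinase kinase gene, fell from 7.18 and 8.0 FPKM to 5.14 and 5.21 FPKM (1.39-fold, adjusted p = 0.00342), and KDX1 and BCK1 were also called without the block (adjusted p = 0.0175 and 0.0203).

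The last 2 calls in WT at 10 min were small and were lost when certain single libraries were left out, though the changes kept their sign. MKK1, which encodes one of the paired MAP kinase kinases, rose 1.29-fold (adjusted p = 0.0213, without the block 0.486), and the call was lost without library 0 at 0 min (0.190), library 0 at 10 min (0.0741) or library 1 at 10 min (0.0767). WSC1 fell 1.17-fold (adjusted p = 0.0156, without the block 0.837), and the call was lost without library 1 at 0 min (0.143) or library 0 at 10 min (0.125). MKK2, the partner of MKK1, gave -0.23 ± 0.12, which was called when the columns were rescaled (adjusted p = 0.0225). MID2, PKC1 and RLM1 were not called.

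At 20 min in WT, 5 of 9 members were called against 70.7% of tested features. SLT2 held at 96.4 and 220 FPKM, 2.42-fold above 0 min (adjusted p = 2.88e-05, without the block 0.306). PKC1 (chromosome II, 14241 to 17696) rose from 21.4 and 24.5 FPKM to 38.8 and 40.7 FPKM. Its change of 0.77 ± 0.06 (1.71-fold, adjusted p = 5.48e-08) was larger than the spread between libraries and was called without the block as well (5.01e-05). MKK1 was 1.44-fold higher (adjusted p = 0.00185, without the block 0.256).

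The sensor MID2 was 1.29-fold lower at 20 min in WT (adjusted p = 0.0130, without the block 0.599), a call lost without library 1 at 0 min (0.0958) or at 20 min (0.155). MKK2 was 1.22-fold higher (adjusted p = 0.0429), and that call was lost without the block (0.654), on rescaling (0.0721), and without library 0 at 0 min (0.316), library 0 at 20 min (0.188) or library 1 at 20 min (0.0682). KDX1 was back at 80.8 and 73.4 FPKM and was not called against 0 min (adjusted p = 0.447).

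Among the 22 other pathway genes, 11 rose and 5 fell in WT at 10 min, and 13 rose and 5 fell at 20 min, with median log2 changes of 0.31 and 0.36 beside 0.02 and 0.07 over all tested features. Of all features 31.8% rose and 29.8% fell at 10 min, and 38.8% and 31.9% at 20 min. Without the block 10 and 9 of the 22 were called. BAG7 rose 19.0-fold by 10 min and SDP1, the gene of a phosphatase of Slt2, 7.66-fold, reaching 14.9-fold at 20 min. ROM1, an exchange factor gene for Rho1, rose 3.37-fold, and PTP2 2.56-fold. ZEO1, whose product binds Mid2, fell 4.65-fold by 20 min (adjusted p without the block 0.0931).

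Of the 17 wall genes, 8 rose and 3 fell in WT at 10 min, and 7 rose and 8 fell at 20 min, called shares to be read beside the same 61.6% and 70.7% of all features. Without the block 6 and 7 were called. NCW2 rose 7.40-fold, PIR3 3.07-fold and CWP1 2.93-fold by 10 min, and without the block CWP1 was not called (adjusted p = 0.0652). FKS1 fell 2.08-fold and, by 20 min, 3.23-fold. The median log2 change of the list was 0.22 at 10 min and -0.08 at 20 min.

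Kinases of the other MAP kinase cascades gave 4 higher and 2 lower of 9 in WT at 10 min and 5 higher and 1 lower at 20 min, so 6 of 9 were called at each time, beside 61.6% and 70.7% of all features. Without the block 4 and 3 were called. SMK1, the sporulation MAP kinase gene, rose 1.92-fold at 10 min, STE7 of the mating cascade 1.40-fold and HOG1 1.35-fold (adjusted p without the block 0.281), while SSK22, a kinase gene above Hog1, fell 1.64-fold. STE11 rose 1.68-fold by 20 min. Before salt, the list gave 3 higher and 2 lower in Mut1, 2 higher and 1 lower in Mut2, and 1 higher in Mut3, where 18.1%, 20.9% and 7.91% of all features were called. KSS1, the filamentation MAP kinase gene, exceeded its WT level by 1.41-, 1.46- and 1.53-fold in the 3 mutants. PBS2, the kinase gene directly above Hog1, was 1.33- and 1.29-fold higher in Mut1 and Mut2, where SMK1 was 1.44- and 1.39-fold lower. STE11 was 1.30-fold higher in Mut1. Without the block 0 of these 9 kinases were called before salt in any mutant.

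In Mut1 and Mut2, salt lowered KDX1, RLM1 and MID2 within 10 min, and SLT2 by 20 min. At 10 min 4 members were called in Mut1 (58.1% of tested features) and 5 in Mut2 (58.8%). SLT2 went from 97.1 and 319 FPKM to 112 and 283 FPKM in Mut1, and from 106 and 323 FPKM to 109 and 262 FPKM in Mut2. These changes, 0.02 ± 0.19 and -0.13 ± 0.19, were not called, and the libraries overlap. KDX1 went from 166 and 159 FPKM to 116 and 95.9 FPKM in Mut1 (1.54-fold lower, adjusted p = 3.12e-05) and from 164 and 165 FPKM to 103 and 103 FPKM in Mut2 (1.60-fold lower, adjusted p = 1.43e-05). Before and after salt did not overlap, and both falls were called without the block (adjusted p = 0.00210 and 0.00112).

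RLM1 fell 1.51-fold in Mut1 (adjusted p = 5.31e-04, without the block 0.554), to 15.1 and 28 FPKM, and 1.64-fold in Mut2 (adjusted p = 1.13e-04, without the block 0.461), to 15.1 and 26.3 FPKM. Within each library number these are close to the WT values of 13.4 and 26.5 FPKM at that time. The sensor MID2 (chromosome XII, 790676 to 791806) fell from 75.2 and 135 FPKM to 46.0 and 77.1 FPKM in Mut1 (1.68-fold, adjusted p = 8.35e-05, without the block 0.314), and from 84.5 and 127 FPKM to 46.8 and 84.6 FPKM in Mut2 (1.64-fold, adjusted p = 1.35e-04, without the block 0.341). PKC1 rose at 10 min already, to 32.8 and 35.4 FPKM in Mut1 (1.51-fold, adjusted p = 1.58e-06) and 33.4 and 35.7 FPKM in Mut2 (1.57-fold, adjusted p = 6.14e-07), and was called without the block too (8.31e-04 and 3.88e-04). WSC1 rose 1.15-fold in Mut2 (adjusted p = 0.0348, without the block 0.869), and the call was lost on rescaling (0.0873) and without library 0 at 0 min (0.119), library 1 at 0 min (0.0758) or library 1 at 10 min (0.196).

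By 20 min, 8 members were called in Mut1 (63.5% of tested features) and 7 in Mut2 (64.6%). KDX1 reached 67.8 and 55.4 FPKM in Mut1, 2.63-fold below its start (adjusted p = 4.98e-09), and 79.7 and 69.4 FPKM in Mut2, 2.20-fold below (adjusted p = 4.86e-08), and both were called without the block (9.45e-07 and 7.83e-06). SLT2 also fell, to 67.5 and 158 FPKM in Mut1 (1.69-fold, adjusted p = 0.00261) and to 79.5 and 188 FPKM in Mut2 (1.51-fold, adjusted p = 0.0126), and without the block neither was called (0.590 and 0.682). The call in Mut2 was lost without library 1 at 0 min (0.0854) or library 1 at 20 min (0.0978), and on the compared groups alone (0.0548). RLM1 was 1.78-fold below its start in Mut1 (adjusted p = 2.16e-05, without the block 0.348) and 1.44-fold in Mut2 (adjusted p = 0.00128, without the block 0.580).

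The upper members moved both ways by 20 min. MID2 was 1.69-fold lower in Mut1 (adjusted p = 6.03e-05, without the block 0.277) and 2.02-fold lower in Mut2 (adjusted p = 3.29e-06, without the block 0.138). PKC1 was 1.53-fold higher in Mut1 (adjusted p = 7.58e-07) and 1.73-fold in Mut2 (adjusted p = 5.87e-08), with or without the block (4.41e-04 and 4.95e-05). MKK2 rose 1.54- and 1.58-fold (adjusted p = 3.38e-04 and 2.10e-04, without the block 0.322 and 0.291). WSC1 rose 1.39- and 1.203-fold (adjusted p = 5.67e-05 and 0.00558, without the block 0.617 and 0.791), and MKK1 1.41-fold in Mut1 (adjusted p = 0.00337, without the block 0.317). BCK1 lay between 6.38 and 8.46 FPKM in both mutants and was not called. Without library 0 of Mut2 at 20 min, 7 members were called in Mut2 too, with SLT2 at -0.71 (adjusted p = 0.0204) and KDX1 at -1.18 (1.07e-06). Of the 17 wall genes, 1 rose and 9 fell in Mut1 by 20 min, and 1 rose and 14 fell in Mut2, with median log2 changes of -0.35 and -0.82. Over all features 34.0% rose and 29.6% fell in Mut1, and 35.5% and 29.1% in Mut2. Without the block 7 and 9 of the 17 were called. Without library 0 of Mut2 at 20 min, 0 rose and 14 fell in Mut2, with a median of -0.88.

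In Mut3, SLT2 went from 39.5 and 146 FPKM to 118 and 322 FPKM at 10 min (2.55-fold, adjusted p = 2.43e-05, without the block 0.331) and to 122 and 238 FPKM at 20 min (2.22-fold, adjusted p = 7.52e-05, without the block 0.359). In each library number both times lay above the start. At 10 min 3 members were called in Mut3, where 60.6% of tested features were. PKC1 rose 1.17-fold (adjusted p = 0.00621, without the block 0.142), a call lost without library 0 at 0 min (0.0511) and on the compared groups alone (0.0886). WSC1 fell 1.17-fold (adjusted p = 0.0188, without the block 0.841), a call lost without any 1 of the 4 libraries (0.0586 to 0.0837).

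At 20 min 7 members were called in Mut3, where 70.4% of tested features were. PKC1 was at 40.04 and 38.9 FPKM, 1.67-fold above its start (adjusted p = 8.38e-08, without the block 7.05e-05). KDX1 fell from 65.5 and 58.2 FPKM to 51.5 and 42.4 FPKM with no overlap (1.31-fold, adjusted p = 0.00116, without the block 0.0240). MKK2 rose 1.504-fold (adjusted p = 4.71e-04, without the block 0.325) and MID2 fell 1.45-fold (adjusted p = 9.78e-04, without the block 0.421). WSC1 rose 1.15-fold (adjusted p = 0.0243, without the block 0.829), a call lost on rescaling (0.239) and without library 0 at 0 min (0.0658), library 1 at 0 min (0.0979) or library 0 at 20 min (0.186). MKK1 rose 1.23-fold (adjusted p = 0.0463, without the block 0.533), a call lost on rescaling (0.123) and without library 1 at 0 min (0.381) or library 0 at 20 min (0.482).

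**Figure D5:**
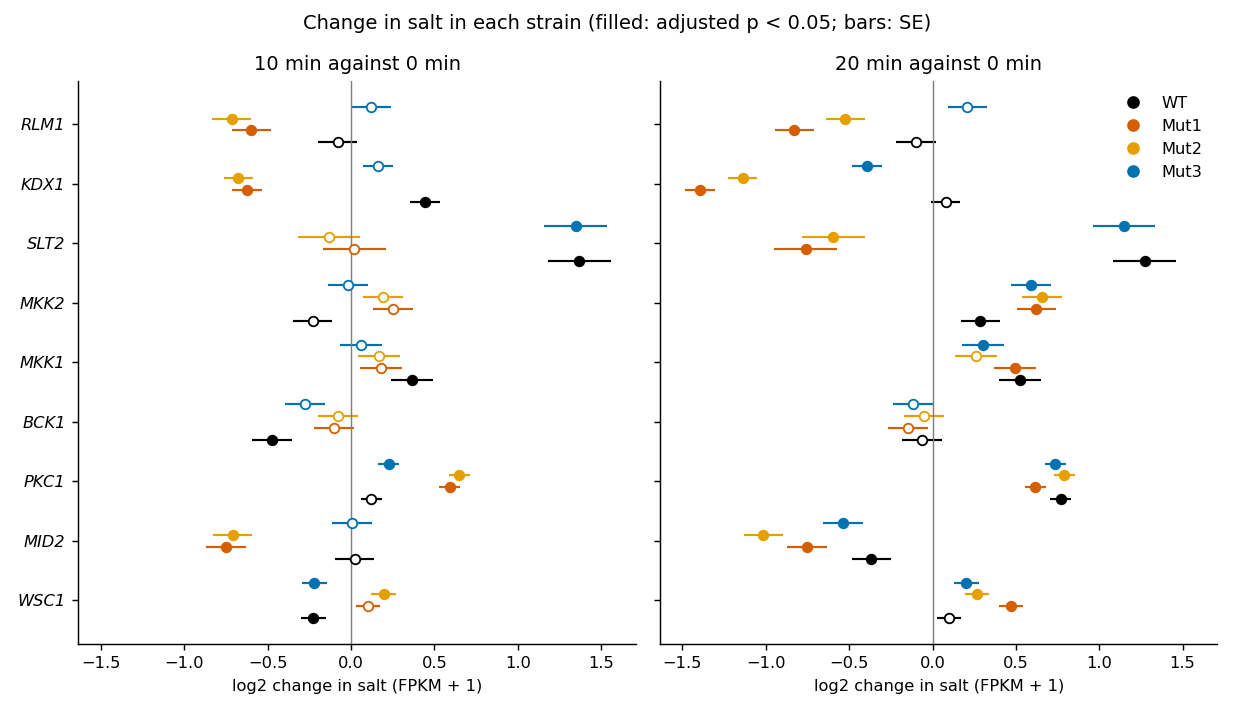
Log2 change of the 9 genes from 0 to 10 min and from 0 to 20 min in each strain, with bars of 1 SE and filled points for an adjusted p under 0.05. SLT2 lies at 1.15 to 1.37 in WT and Mut3 and at 0.02 to -0.76 in Mut1 and Mut2, while PKC1 lies at 0.62 to 0.79 in all strains at 20 min.

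Between 10 and 20 min, KDX1 fell in every strain: 1.29-fold in WT (adjusted p = 0.00462, without the block 0.0886), 1.71-fold in Mut1 (5.41e-05, without the block 0.00620), 1.38-fold in Mut2 (0.00180, without the block 0.0662) and 1.47-fold in Mut3 (1.92e-04, without the block 0.0114). On the compared groups alone none of the 4 KDX1 falls was called (adjusted p = 0.0566 to 0.146). In WT 6 members were called (41.8% of tested features), in Mut1 4 (20.3%), in Mut2 2 (28.4%) and in Mut3 5 (42.3%). MKK2 rose in all 4 strains, by 1.43-, 1.29-, 1.38- and 1.52-fold in the same order, and without the block none of these was called (adjusted p = 0.492 to 0.986). The MKK2 call was lost without any 1 of the 4 libraries in Mut1 (adjusted p = 0.104 to 0.205), and in Mut2 without library 1 at 10 min (0.0686) or at 20 min (0.0541). PKC1 rose 1.57-fold in WT and 1.42-fold in Mut3, with or without the block (0.00150 and 0.00700), though the call in Mut3 was lost on the compared groups alone (0.0507). It was 1.02- and 1.10-fold higher in Mut1 and Mut2, where it was not called. Without library 0 of Mut2 at 20 min, the same 2 members were called in Mut2, MKK2 at 0.50 (adjusted p = 0.0400) and KDX1 at -0.50 (0.00752).

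WSC1 rose 1.253-fold in WT from 10 to 20 min (adjusted p = 0.00278), 1.29-fold in Mut1 (0.00303) and 1.34-fold in Mut3 (3.91e-04), and without the block none was called (0.856, 1.00 and 0.778). The WT call was lost without library 0 at 20 min (0.0543). MID2 fell 1.31-fold in WT (adjusted p = 0.0171, without the block 0.752) and 1.46-fold in Mut3 (0.00207, without the block 0.602), and the WT call was lost without library 1 at 10 min (0.178) or at 20 min (0.178). BCK1 rose back 1.33-fold in WT (adjusted p = 0.0141, without the block 0.0820), a call lost without library 1 at 10 min (0.0936) or library 0 at 20 min (0.0943). SLT2 fell 1.72-fold in Mut1 (adjusted p = 0.00953, without the block 0.985), a call lost without library 0 at 10 min (0.0747) or library 1 at 20 min (0.0951), and on the compared groups alone (0.0756).

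With salt present, SLT2 and RLM1 were not called between any mutant and WT, and other members were. On rescaling, SLT2 was called in Mut1 (adjusted p = 0.0251) and RLM1 in Mut2 (0.0225) at 20 min. These comparisons share the WT libraries. At 10 min 5 members were called in Mut1 (42.9% of tested features), 5 in Mut2 (39.5%) and 1 in Mut3 (12.5%). PKC1 was 1.35-fold above WT in Mut1 (adjusted p = 1.15e-04) and 1.37-fold in Mut2 (8.94e-05), with or without the block (0.0194 and 0.0171), but was not called on the compared groups alone (0.0623 and 0.0730). WSC1 was 1.30- and 1.41-fold higher (adjusted p = 0.00111 and 1.46e-04) and MID2 1.498- and 1.42-fold lower (0.00143 and 0.00424). MKK2 was 1.49- and 1.38-fold higher (0.00152 and 0.00744) and BCK1 1.26- and 1.32-fold (0.0371 and 0.0185). Without the block these 4 gave adjusted p of 0.1003 to 0.807.

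Several of those calls were lost when certain single libraries were left out, though the differences kept their sign. The BCK1 call in Mut1 was lost without any 1 of the 4 libraries (adjusted p = 0.0738 to 0.174), and in Mut2 without library 1 of WT (0.113) or library 0 of Mut2 (0.156). In Mut2 the MID2 call was lost without library 1 of WT (0.0640), and the MKK2 call without library 1 of WT (0.0851) or library 0 of Mut2 (0.0618). The call in Mut3 was KDX1, at 67.5 and 70.9 FPKM beside 102 and 96.6 FPKM in WT. The groups do not overlap and the difference was -0.52 ± 0.09 (1.43-fold, adjusted p = 0.00179, without the block 0.0736, on the compared groups alone 0.118).

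At 20 min 4 members were called in Mut1 (32.5% of tested features), 3 in Mut2 (35.3%) and 2 in Mut3 (21.1%). KDX1 was again lowest in Mut3, at 51.5 and 42.4 FPKM beside 80.8 and 73.4 FPKM in WT, with no overlap (1.63-fold, adjusted p = 1.11e-04, without the block 0.00857, on the compared groups alone 0.0610). It was 1.253-fold lower in Mut1 (adjusted p = 0.0126, without the block 0.182), a call lost without library 0 of WT (0.0640), library 1 of WT (0.0582) or library 1 of Mut1 (0.134), and on the compared groups alone (0.101). WSC1 was higher in all 3 mutants: 1.34-fold in Mut1 (adjusted p = 7.87e-04, without the block 0.849), 1.19-fold in Mut2 (0.0195, without the block 0.908) and 1.26-fold in Mut3 (0.00580, without the block 0.978). Its call in Mut2 was lost without library 1 of WT (0.221), library 0 of Mut2 (0.0792) or library 1 of Mut2 (0.0593), and that in Mut3 without library 1 of WT (0.101) or library 0 of Mut3 (0.0754).

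MKK2 was 1.35-fold higher than WT in Mut1 at 20 min (adjusted p = 0.0130, without the block 0.743) and 1.33-fold in Mut2 (0.0158, without the block 0.717). Each call was lost without any 1 of 3 libraries, library 1 of WT and both of the mutant (0.0559 to 0.0936 in Mut1, 0.0512 to 0.104 in Mut2). PKC1 was 1.14-fold lower in Mut1 (adjusted p = 0.0299, without the block 0.410), lost without any 1 of the 4 libraries (0.0712 to 0.157) and on the compared groups alone (0.172). MID2 was 1.34-fold lower in Mut2 (adjusted p = 0.0140, without the block 0.753), lost without library 0 of WT (0.147) or library 1 of Mut2 (0.106). Without library 0 of Mut2, which is high in structural RNA, 1 member in place of 3 was called in Mut2, MID2 at -0.51 (adjusted p = 0.0248).

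The difference between a mutant's response and that of WT was tested directly. Since it contains the strain difference before salt, it is not independent of the tests at 0 min. At 10 min it was called for 6 members in Mut1 (16.4% of tested features), 6 in Mut2 (15.6%) and 0 in Mut3 (1.09%), and at 20 min for 4 in Mut1 (15.5%), 3 in Mut2 (25.3%) and 0 in Mut3 (3.73%). For SLT2 the change at 10 min was 2.55-fold less than in WT in Mut1 (adjusted p = 0.00344) and 2.83-fold less in Mut2 (0.00178), and at 20 min 4.09- and 3.65-fold less (1.62e-04 and 2.48e-04). For KDX1 it was 2.09- and 2.17-fold less at 10 min and 2.78- and 2.33-fold less at 20 min. KDX1 was the member called in these tests without the block as well (adjusted p = 4.84e-04 to 0.00604), and for SLT2 the fit without the block gave 0.627 to 0.906. Without library 0 of Mut2 at 20 min, the same 3 members were called for Mut2 at 20 min, MID2 at -0.73 (adjusted p = 0.0182), SLT2 at -1.98 (8.65e-04) and KDX1 at -1.26 (8.67e-05). In Mut3, limma gave 1 member, KDX1, at an unadjusted p under 0.05 at each time. Its adjusted p was lowest at 20 min (-0.47, 0.0560), which passed when the columns were rescaled (0.0219). The SLT2 responses of Mut3 and WT differed by -0.02 at 10 min (adjusted p = 0.996) and -0.12 at 20 min (0.893).

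The order of the group means was as follows. For KDX1 the top groups were untreated Mut2 and Mut1, followed by a step of 7.01 SE to the next group, and the lowest was Mut3 at 20 min. For RLM1 the same 2 groups stood on top, with a step of 3.80 SE below them, and no neighbours among the other 10 groups differed by more than 1.30 SE. For SLT2, neighbours were within 2 SE of each other but for a step of 2.32 SE above untreated Mut3 and WT, the lowest groups. For PKC1 the largest step, 4.82 SE, parted the groups at 20 min and Mut1 and Mut2 at 10 min from the rest.

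Over the 12 group means, which share their libraries and number effect, KDX1 and RLM1 had a Pearson r of 0.78, and MID2 and PKC1 one of -0.92. SLT2 was less like either, with 0.43 to KDX1 and 0.40 to RLM1. Among 5961 other genes with a mean of at least 5 FPKM, the patterns most like SLT2 were those of RBK1 (r = 0.926), FLC2 (0.904), ADD37 (0.902), the wall gene CWP1 (0.886) and SRL3 (0.876). Those most like KDX1 were TYR1 (0.970), PCA1 (0.964), GFA1 (0.907), TIR1 (0.888) and YKL102C (0.887). TYR1 encodes prephenate dehydrogenase, and GFA1 the first enzyme of chitin precursor synthesis. These are descriptions over 12 points, with no test.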

How the data were processed

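Per the labels' protocols, RNA isolated by miRNeasy columns and cleared of DNA by DNase was prepared with the TruSeq Stranded mRNA kit. The authors deposited a single table of FPKM values, for which the submitters' processing notes list TopHat2, Cuffdiff and sacCer3, without versions. Its annotation, strand setting and scaling are not given in these sources. A column's name gave its strain and time, and the column strains 1, 2 and 3 were read as Mut1, Mut2 and Mut3.

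The values log2(FPKM + 1) of all 24 libraries entered limma 3.58.1 (R 4.3.3) with 12 group means, the library number and a variance trend. The moderated two-sided tests had 11 residual and 2.57 prior degrees of freedom. Tests and Benjamini-Hochberg adjustment covered the 6359 features whose mean reached 1 FPKM. The fit was also run on data simulated from its own model, with the shared library-number term and independent residuals. Such data cannot tell if the block is right or if a group's libraries were grown separately. The pairing of libraries by number comes from the column names and was set when the members were chosen. The correlation of their deviations is given above. Sites and overlaps were read from RefSeq R64, where 6079 features matched, and copies were sought with blastn 2.17.0.

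The alternatives tried were no replicate block, a block within each strain, another pseudocount (0.1 FPKM), testing without the mean filter, rescaling by median ratios, the compared groups alone, and each library left out. Genes named are all members, up to 4 called genes per list with the largest change (WT in salt, each mutant before salt), and the 5 genes most like SLT2 and KDX1. CHS3, and TIR1 and FKS1 as genes not called, were named after their values were seen. Members and lists were chosen with earlier results of these data known.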

Additional observations from a re-analysis of the deposited data

Results flagged for a closer look

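The members below responded to salt differently from WT, by a test of the difference between the responses with the library number as a block. This difference contains the strain difference before salt, so it is not a separate result for SLT2, KDX1 and RLM1, which started high in Mut1 and Mut2. At 10 min limma called none of these genes between Mut1 or Mut2 and WT (adjusted p = 0.434 to 0.695). Values are log2 differences (mutant's change less that of WT), and the WT libraries are shared. At 10 min in Mut1 they were 0.33 for WSC1, -0.77 for MID2, 0.47 for PKC1, -1.35 for SLT2, -1.06 for KDX1 and -0.52 for RLM1. At 10 min in Mut2 they were 0.42 for WSC1, -0.73 for MID2, 0.53 for PKC1, -1.5 for SLT2, -1.12 for KDX1 and -0.64 for RLM1. At 20 min in Mut1 they were 0.37 for WSC1, -2.03 for SLT2, -1.47 for KDX1 and -0.73 for RLM1, and in Mut2 -0.65 for MID2, -1.87 for SLT2 and -1.22 for KDX1.

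The smaller of these were lost when certain single libraries were left out, though the differences kept their sign. In Mut1 at 10 min, the differences of WSC1 (adjusted p = 0.0467) and RLM1 (0.0473) were each lost without any 1 of 7 of the 8 libraries, giving 0.0539 to 0.199. In Mut2 at 10 min, WSC1 (0.0143) was lost without library 1 of untreated WT (0.0620), library 0 of WT at 10 min (0.0650) or library 1 of Mut2 at 10 min (0.0616). RLM1 (0.0187) was lost there without library 0 of untreated WT (0.0913), library 0 of WT at 10 min (0.0623), library 1 of untreated Mut2 (0.0688) or library 1 of Mut2 at 10 min (0.0875). WSC1 in Mut1 at 20 min (0.0283) was lost without 5 of the 8 libraries (0.0629 to 0.127), and MID2 in Mut2 at 20 min (0.0129) without library 0 of WT at 0 min (0.0561) or at 20 min (0.0621). Without the block, the differences other than those of KDX1 had an adjusted p of 0.117 to 1.00.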

How the results depend on the processing

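Of the counts of called members, those within 1.5 times under each alternative are left out here. Without the replicate block (unpaired), the members called for Mut1, Mut2 and Mut3 against WT were 1, 1 and 0 at 0 min, 1, 1 and 0 at 10 min, and 0, 0 and 1 at 20 min. For WT, Mut1, Mut2 and Mut3 they were then 2, 2, 2 and 0 at 10 against 0 min, 1, 2, 2 and 2 at 20 against 0 min, and 1, 1, 0 and 2 at 20 against 10 min. For the response less that of WT, Mut1 and Mut2 each had 1 at 10 min and 1 at 20 min.

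Fitted on the compared groups alone with the block, WT had 3, 3 and 1 (10 against 0, 20 against 0, 20 against 10 min), Mut1 and Mut2 had 0 at 20 against 10 min, and Mut3 had 1 at 10 against 0 and 3 at 20 against 10 min. Against WT, Mut1, Mut2 and Mut3 had 1, 0 and 0 at 10 min and 0 each at 20 min, and the response counts were 2 (Mut1, 20 min) and 2 (Mut2, 10 min). Of 106 member calls, 54 were lost in that fit (adjusted p = 0.0507 to 0.290), 15 of 17 for WSC1, 7 of 14 for MID2, 6 of 14 for PKC1, 3 of 4 for BCK1, 2 of 4 for MKK1, 7 of 12 for MKK2, 2 of 13 for SLT2, 7 of 19 for KDX1 and 5 of 9 for RLM1. From 0 to 10 min they were WSC1 and MKK1 in WT, WSC1 in Mut2, and WSC1 and PKC1 in Mut3. From 0 to 20 min they were MID2 and MKK2 in WT, WSC1 and SLT2 in Mut2, and WSC1 and MKK1 in Mut3. From 10 to 20 min they were WSC1, MID2, BCK1, MKK2 and KDX1 in WT, WSC1, MKK2, SLT2 and KDX1 in Mut1, MKK2 and KDX1 in Mut2, and PKC1 and KDX1 in Mut3. Against WT at 10 min they were WSC1, MID2, PKC1 and BCK1 in Mut1, these and MKK2 in Mut2, and KDX1 in Mut3, and at 20 min all 9 calls. Against WT at 0 min RLM1 was lost in Mut1 and Mut2. Of the responses they were WSC1 and RLM1 (Mut1, each time), WSC1, MID2, PKC1 and RLM1 (Mut2, 10 min) and MID2 (Mut2, 20 min). On median-ratio rescaling the counts were 4 (Mut2, 20 against 10 min), 5 (Mut2 response, 20 min), 1 (Mut3 against WT, 0 min), 2 (Mut3 against WT, 10 min) and 1 (Mut3 response, 20 min), and without the filter 2 (Mut3 against WT, 10 min). Rescaling also turned the library-number difference of PKC1 to -0.08101 and of BCK1 to -0.07568, and it moved the median of all features by up to 0.10. No called change of a member between groups turned its sign. A block within each strain lost 6 calls (adjusted p = 0.0513 to 0.0715): WSC1 in Mut2 at 10 min, MKK2 in WT at 20 min and in Mut1 from 10 to 20 min, BCK1 in Mut1 against WT at 10 min, and the WSC1 and RLM1 responses of Mut1 at 10 min. Testing without the filter lost 2, MKK1 in Mut3 at 20 min and that RLM1 response.

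With 1 library left out, counts ranged from 3 to 4 (WT, 10 against 0 min), 3 to 4 (WT, 20 against 0), 1 to 3 (Mut3, 10 against 0), 2 to 3 (Mut1, 20 against 10), 1 to 2 (Mut2, 20 against 10), 2 to 5 (Mut2 against WT, 10 min), and 1 to 2, 0 to 2 and 1 to 2 (Mut1, Mut2 and Mut3 against WT, 20 min). A group left with 1 library is assumed to vary like the others. Over all features, counts ran from 69 to 4494, from 12 to 3032 without the block (26 of 27 comparisons moved over 1.5 times), from 0 to 3946 on the compared groups alone (19 of 27), and from 26 to 4211 with a library left out (36 of 132). The causes were not tested. The depth is unknown, and 2 libraries a group limit the precision.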
